A study of Pteromalus puparum with 9 samples.

Results

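The salivary gland reservoir of the parasitoid wasp Pteromalus puparum was compared with the carcass in 6 bulk RNA sequencing libraries, 3 per tissue, chosen by their tissue label from the 9 libraries of the series. All libraries came from wild-type wasps, were strand-specific and carried the same batch label. The titles call the libraries of each tissue biological replicates. The labels give no stage, sex, age or treatment and do not define the carcass further. They also do not say whether a library pooled animals or how many animals a replicate came from. The p-values rest on the spread between these replicates, and what it covers beyond the label is not known. The 3 gland duct libraries took part in the filter, the scaling, the estimate of the spread and the means over 9 libraries, and duct values are given where named. With the 6 reservoir and carcass libraries alone, 11724 stems were tested, with 1984 called higher and 3030 lower in the reservoir.

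Pteromalus puparum develops inside butterfly pupae. Insect salivary glands are secretory organs whose products leave through a duct, and a reservoir is the part in which secretion can be held before release. In insect dissections the word carcass usually means the body that remains once organs have been taken out, which holds muscle, cuticle, fat body and nerve tissue in varying parts. The deposited IDs are not paired with gene names in the sources used here, so no defining marker of gland, muscle or fat body could be checked, and no sequence or genome position is given.

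Expression was followed per ID stem, the ID without its isoform number, used here in place of a gene. Models of different stems alternate in the deposited order, such as Ppup144450.1 between PB.414.7x and PB.414.25x. Whether a gene is split over several stems is not known, so counts of stems are not counts of genes. Summing the 40026 transcript models gave 21808 stems, of which 12143 had enough counts to be tested. The 6 libraries held between 18814337 and 22640711 counts. Levels are given as CPM, counts per 1e6 after scaling by TMM, a trimmed mean of ratios between libraries, and they are not corrected for transcript length. Reservoir replicate 1 stood apart from its group for stems abundant in the carcass. Among the 10 leading stems of each direction, carcass replicate 2 mostly held the lowest carcass level. Values without these libraries stand beside some of the results they touch, not all. The scaling factors ranged over 0.7421 to 0.8175 for reservoir and over 1.087 to 1.652 for carcass libraries. At these depths a stem with no count in a library could still stand at 0.162 to 0.21 CPM in a reservoir library or at 0.0898 to 0.125 CPM in a carcass library (3 counts, covering counting error only).

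The reservoir and the carcass differed in a large share of what they expressed. Of the tested stems, 5155 were called, or 42.5%, at a Benjamini-Hochberg adjusted p under 0.05 in edgeR's quasi-likelihood test and a fold of at least 2. In the reservoir 1817 stems were higher (15% of those tested) and 3338 were lower (27.5%). The median log2 fold change, reservoir minus carcass, was 2.08 over the higher stems and -3.58 over the lower stems, against -0.23 over all tested stems. With stems that had no count in 1 tissue set at their bound, these medians were 2.08, -3.51 and -0.23. The median stem of the higher set had 27.7 CPM in reservoir and 4.77 CPM in carcass libraries. The median stem of the lower set had 0.668 CPM in reservoir and 8.38 CPM in carcass libraries. Libraries of the tissues did not overlap in 1797 of the 1817 higher stems and in 3282 of the 3338 lower ones, while 66.4% of all tested stems did not overlap (26.5% higher, 39.9% lower in the reservoir). In bulk samples, fewer cells of a type and less RNA per cell cannot be told apart.

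The balance of higher and lower stems rested on the scaling. Higher stems made up 35.2% of the calls after TMM scaling and 15.1% when libraries were scaled by size alone, with 994 higher and 5609 lower. On log2(TPM + 1) in limma they made up 9.25%, with 636 higher and 6242 lower. The median log2 fold change moved by -0.788 with size alone. Changes of 2 to 4 times bore most of this: of 859 higher stems in that range, 91 were still called higher with size alone, compared with 423 of 478 stems between 4 and 16 times and 185 of 186 between 16 and 64 times. All 3338 lower stems were still called lower with size alone. Because size alone moved the fold changes downward, this is no check on the lower calls.

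**Figure D1:**
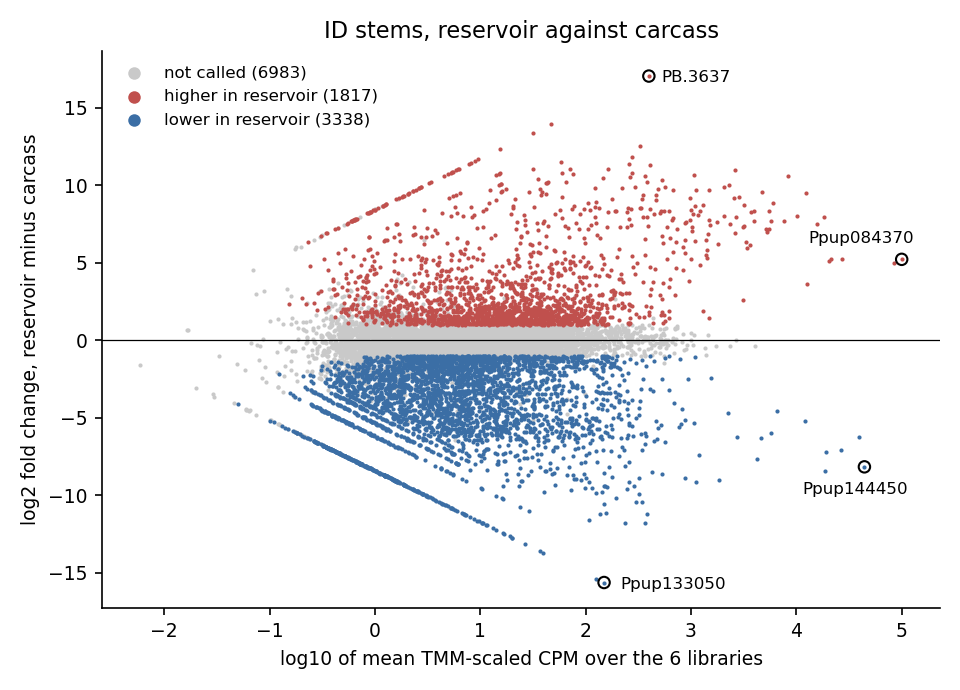
Log2 fold change (reservoir minus carcass) of each tested ID stem against log10 of its mean TMM-scaled CPM over the 6 libraries, coloured by call, with the 4 named stems circled. The 1817 higher stems lie above and the 3338 lower stems below the line, 5 stems without a count in the 6 libraries are not drawn, and the diagonal rows at the edges are stems with no or few counts in 1 tissue, whose fitted values depend on the fit's prior count.

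In each direction 2 stems were followed in full, by a rule on fold and a rule on level. PB.3637, the higher stem with the largest fitted fold among those at 50 CPM or more, stood at 851.3, 715.4 and 824.1 CPM in the 3 reservoir libraries and had no count in any carcass library. All reservoir libraries lay far above the carcass, and the duct was in between at 38.54, 58.78 and 54.32 CPM. Set against a carcass floor of 3 counts over the group, PB.3637 was higher in the reservoir by at least 22700-fold (edgeR adjusted p = 2.74e-06). Its reservoir level exceeded that of the duct by 3.98 ± 0.23 on the log2 scale (SE; edgeR adjusted p = 0.000181). This contrast shares the reservoir libraries with the one against the carcass.

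Ppup084370, the higher stem with the most counts, stood at 177500, 203200 and 204000 CPM in the reservoir and at 5335, 2692 and 7621 CPM in the carcass. All 3 reservoir libraries lay above the carcass, and the groups did not overlap. The reservoir level was higher by 5.22 ± 0.53 on the log2 scale (SE; edgeR adjusted p = 6.97e-05). The duct stood at 134200, 141800 and 129100 CPM, and the difference between reservoir and duct did not pass the test, at 0.53 ± 0.44 (log2, SE; edgeR adjusted p = 0.439). In the TPM deposited by the authors, an abundance per transcript length, the reservoir values were 23670 and 28080 in replicates 1 and 3, and the carcass values were 1777, 1104 and 2313.

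Ppup133050, the lower stem with the largest fitted fold among those at 50 CPM or more, stood at 395.5, 205.1 and 297.5 CPM in the carcass and had no count in any reservoir library. All 3 reservoir libraries were at 0, while the duct held 129, 0 and 65 counts in replicates 1 to 3. Set against a reservoir floor of 3 counts over the group, it was at least 4730-fold lower in the reservoir (edgeR adjusted p = 0.00162). Its difference between reservoir and duct did not pass the test (edgeR adjusted p = 0.0563).

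Ppup144450, the lower stem with the most counts, stood at 85880, 50630 and 128400 CPM in the carcass. It made up 11.1% ± 2.8 of the carcass counts and 0.0234% ± 0.0189 of the reservoir counts (SD, n = 3). The reservoir libraries stood at 594.6, 139.3 and 181.6 CPM, so that replicate 1 lay well above replicates 2 and 3 while all 3 lay far below the carcass. The log2 fold change was -8.18 ± 1.24 (SE; edgeR adjusted p = 0.000651). The carcass mean was 289 times the reservoir mean with all libraries and 550 times without reservoir replicate 1, where the log2 fold change was -8.97 ± 1.45 (edgeR adjusted p = 0.00184). Per length it was the more abundant of the 2 count-leading stems in their own tissues, at 53550, 38850 and 73060 TPM in the carcass. Each of the 4 named stems has 1 model, with the same counts as its stem, so the test on single models is no separate support. It called all 4 in the same direction, with edgeR adjusted p values of 1.68e-05 for PB.3637, 0.0019 for Ppup084370, 0.00627 for Ppup133050 and 0.00247 for Ppup144450.

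**Figure D2:**
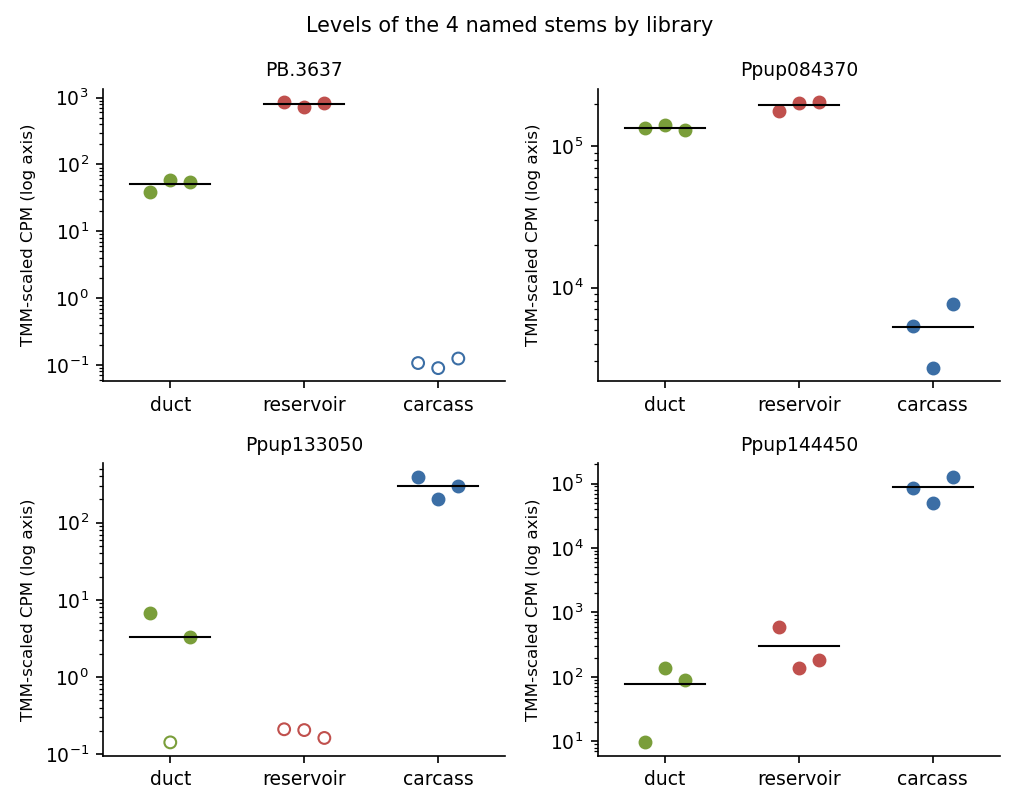
TMM-scaled CPM (log axis, a separate scale per panel) of the 4 named stems in each duct, reservoir and carcass library; filled points are libraries, bars are tissue means, and open points mark libraries with no count, drawn at the level that 3 counts would give. PB.3637 had no carcass count, Ppup133050 had no reservoir count, and reservoir replicate 1 stood at 594.6 CPM for Ppup144450.

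A small number of strongly changed stems carried much of each tissue's RNA. The stems higher in the reservoir held 83.27% ± 0.467 of its counts and 5.725% ± 0.589 of the carcass counts (SD, n = 3). The stems lower in the reservoir held 1.782% ± 0.199 of its counts and 68.52% ± 4.75 of the carcass counts. These shares describe sets that were chosen on the same libraries. The duct held 66.61% ± 0.659 of its counts in the higher set and 11.25% ± 1.01 in the lower set. The duct libraries also entered the fit that made these calls, so their shares are no separate check. Stems changed by 2 to 4 times were many but held few counts: 859 higher stems held 3.8% ± 0.221 of reservoir counts, and 860 lower stems held 4.38% ± 0.616 of carcass counts. The 186 stems that were 16 to 64 times higher held 41.2% ± 1.68 of reservoir counts, Ppup084370 among them. With stems at 0 set at their bound, 266 stems were at least 64-fold higher and held 32.9% ± 2.15 of reservoir counts. On the same terms 449 stems were at least 64-fold lower and held 48.4% ± 7.13 of carcass counts.

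**Figure D3:**
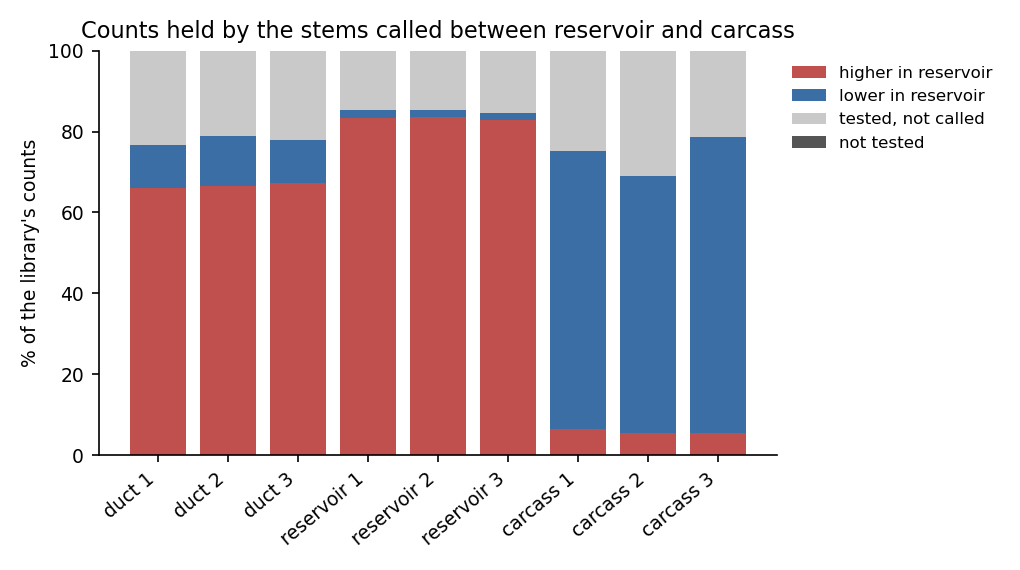
Share of each library's counts (percent, stacked bars) held by stems called higher in the reservoir, called lower, tested without a call, and not tested; the last is too thin to see. Reservoir libraries have 82.76% to 83.68% in the higher set, carcass libraries have 63.67% to 73.17% in the lower set, and the duct libraries lie nearer to the reservoir.

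Among the higher stems, the 10 with the most reservoir counts ranged from 20440 to 194900 CPM there and from 33.31 to 5216 CPM in the carcass. Together they took 47.73%, 49.76% and 47.68% of the counts in reservoir replicates 1 to 3, compared with 2.34%, 1.358% and 2.393% in carcass replicates 1 to 3. The reservoir libraries lay within about 2 percentage points of each other, and no carcass library came near them. Their log2 fold changes ran from 3.64 to 9.52, with edgeR adjusted p values of 3.73e-06 to 0.000129. Carcass replicate 2, the library with the highest scaling factor, held the lowest carcass level in 9 of the 10. Without it all 10 were still called, with log2 fold changes of 3.37 to 9.35. Against the duct 3 of the 10 were called higher in the reservoir and none lower, with log2 differences of 0.27 to 2.34, and 2 were called without reservoir replicate 1. Reservoir and duct differed in 17.1% of all tested stems, with 6.24% called higher and 10.9% called lower in the reservoir.

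The 2 stems with the most reservoir counts together took 27.6% ± 1.64 of the reservoir counts and 1.28% ± 0.423 of the carcass counts (SD, n = 3). A total of 94 of the 1817 higher stems reached a mean of 1000 CPM in the reservoir, and 30 of the 3338 lower stems reached it in the carcass. With the lower scaling factors of the reservoir libraries, the same share of counts gives a higher CPM there, so these 2 numbers depend on the scaling.

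The 10 lower stems with the most carcass counts ranged from 8348 to 88290 CPM in the carcass and from 40.49 to 1018 CPM in the reservoir. They took 44.38%, 40.21% and 53.14% of the counts in carcass replicates 1 to 3, and they were at the same time the 10 most abundant stems of each of these libraries. Carcass replicate 3 was highest for 8 of the 10 and replicate 2 lowest for 9. In reservoir replicates 1 to 3 the same stems took 0.4%, 0.2062% and 0.219% of the counts, and in the duct 0.01759%, 0.05954% and 0.0475%. Their log2 fold changes, reservoir minus carcass, ran from -8.42 to -4.59, with edgeR adjusted p values of 8.99e-06 to 0.00486. All 10 were still called without carcass replicate 2, at a median log2 fold change of -6.84, and without carcass replicate 3, at -6.5.

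Reservoir replicate 1 stood above the other reservoir libraries for carcass-abundant RNA. It was the highest reservoir library for all 10 of these stems, whose median was 516.9 CPM in replicate 1, 158.9 CPM in replicate 2 and 168 CPM in replicate 3. Among the 30 lower stems with at least 1000 CPM in the carcass it was highest for 26, or 86.7%. For the lower stems under that level with any reservoir count it was highest in 48.4% of 3035, and for all tested stems with a reservoir count in 38.2% of 11810. Without it all 10 stems were still called lower than in the carcass, with a median log2 fold change of -7.11 in place of -6.69. Of the 30 stems 29 were still called. What part the difference of this library had in these values was not tested.

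The same 10 stems had fitted levels above those of the duct in the reservoir, with log2 differences of 1.95 to 3.91 and a median of 3.08. The edgeR test called 8 of them higher than in the duct, compared with 6.24% of all tested stems. Its adjusted p values ran from 0.000176 to 0.267 over the 10. Without reservoir replicate 1 it called 5 of them, and the median was 2.75. Both contrasts use the reservoir libraries.

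**Figure D4:**
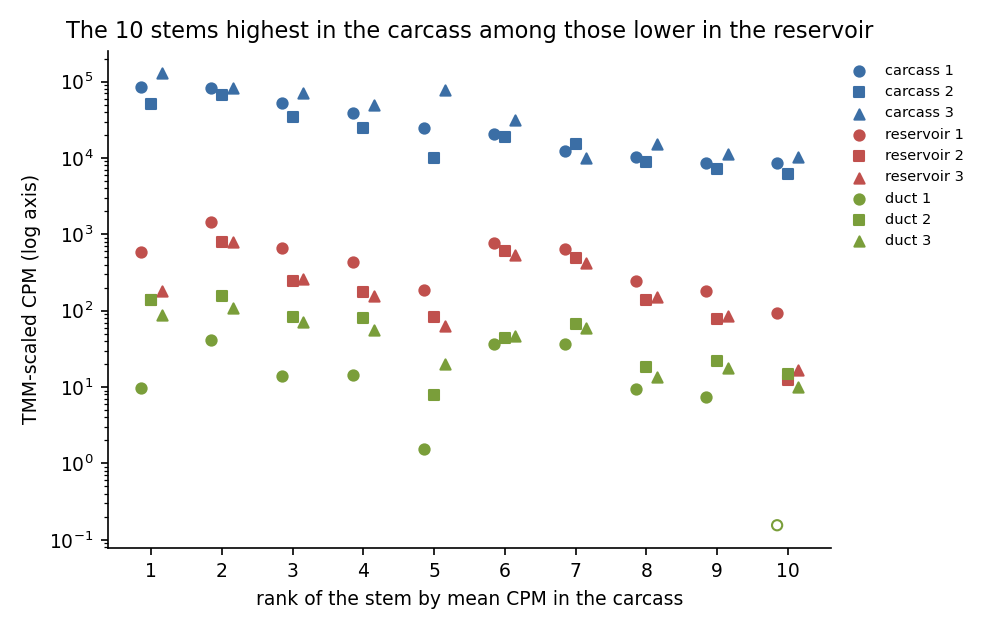
TMM-scaled CPM (log axis) in each library of the 10 stems with the highest carcass mean among those lower in the reservoir, ordered by that mean; colours are tissues, symbols are replicates, and the open point is a duct library with no count. Reservoir replicate 1 (circles) is the highest reservoir library for all 10 stems.

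Some stems were detected in 1 of the 2 tissues and not in the other. Of all 12143 tested stems, 86 had no carcass count and 333 had no reservoir count. Such stems could pass the count filter only through the other tissues. Of the higher stems, 66 (3.63%) had no carcass count, with reservoir means of 0.468 to 797 CPM and a median of 2.88 CPM. Of these, 14 reached 10 CPM and 3 reached 50 CPM, and 5 had no duct count either. Of the lower stems, 273 (8.18%) had no reservoir count, with carcass means of 0.0993 to 299 CPM and a median of 1.79 CPM. Of these, 32 reached 10 CPM and 5 reached 50 CPM, and 78 had no duct count. Counts of 0 over a group allow a mean level of up to 0.0351 CPM in the carcass and 0.0633 CPM in the reservoir. PB.3637 was the most abundant stem without a carcass count, and Ppup133050 was the most abundant one without a reservoir count.

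The calls were also counted by the level of the stem, as its mean over all 9 libraries. This mean holds 6 gland libraries and 3 carcass libraries, so a stem high in the gland reaches a high band more easily, and a stem of low mean can pass the count filter through the tissue where it is high. Among 1442 stems with a mean under 1 CPM over all 9 libraries, 6.8% were higher and 42.7% lower in the reservoir. Among 4434 stems between 10 and 100 CPM the shares were nearly equal, at 19.7% and 19.5%. Among 101 stems at 1000 CPM or more, 64.4% were higher, 22.8% were lower and 12.9% were not called, and their median log2 fold change was 5.49. These shares are descriptions, with no test between the bands, and they are not independent of how the bands are made.

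**Figure D5:**
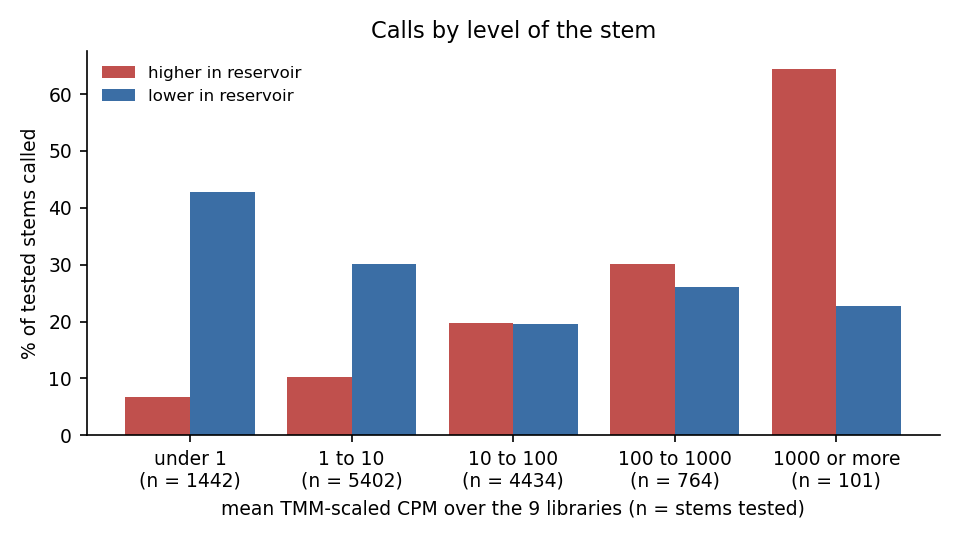
Percent of tested stems called higher or lower in the reservoir (bars) by the stem's mean TMM-scaled CPM over the 9 libraries, with the number tested under each pair. Higher calls go from 6.8% in the lowest band to 64.4% in the highest. Lower calls do not fall steadily, at 42.7%, 30.2%, 19.5%, 26% and 22.8% from the lowest band to the highest.

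Of the 6988 stems without a call, 1827 passed the adjusted p but differed by less than 2 times, and 810 differed by at least 2 times without passing it. The other 4351 met neither condition.

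The reservoir libraries held fewer stems above a fixed level. At least 1 CPM, without TMM scaling, was reached by 8903, 8729 and 8902 stems in reservoir replicates 1 to 3 and by 10886, 11107 and 10451 in the 3 carcass replicates. The groups did not overlap, and the exact two-sided permutation p was 0.1, the smallest that 3 libraries against 3 can give (0.129 after Benjamini-Hochberg adjustment over 9 such measures). On the TMM scale the means were 9191 and 10480. The 10 most abundant stems of each library took 48.48% ± 1.11 of the reservoir counts and 45.91% ± 6.6 of the carcass counts (SD; exact p = 0.5, adjusted 0.5). A number of 12, 11 and 12 stems made up 50% of the counts in the reservoir libraries, and 21, 47 and 8 stems did so in the carcass libraries (exact p = 0.4, adjusted 0.45). The carcass libraries ranged on both sides of the reservoir in how concentrated they were.

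The IDs fall into 6 classes by prefix and by a trailing x, whose meanings none of the sources used here gives. Stems with the prefix Ppup were called most often, with 21.5% of 766 higher, 42.4% lower and 36% not called. They also had the lowest median level of the classes over all libraries, at 1.35 CPM. It was 11 CPM for PB stems without x and 6.45 CPM for those with x. The part of level in these rates was not tested. Of 6894 PB stems without x, 12.6% were higher and 26.3% lower. Of 3140 PB stems with x, 19.5% were higher and 23.4% lower. MSTRG stems numbered 1236, with 13.2% higher and 35.5% lower. Of 61 MSTRGVenom stems 8 were higher and 10 lower, and of 46 MSTRGCarcass stems 4 were higher and 19 lower.

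The classes took shares of the counts that did not overlap between the tissues, although this number of libraries cannot pass the test. Ppup stems took 37.29%, 39.23% and 38.22% of the counts in reservoir replicates 1 to 3 and 27.8%, 21.1% and 31.32% in the corresponding carcass replicates. PB stems with x took 29.22% ± 0.684 of reservoir and 21.56% ± 1.86 of carcass counts, and MSTRG stems took 6.578% ± 0.321 and 2.249% ± 0.416 (SD, n = 3). PB stems without x went the other way, at 25.82% ± 0.652 in the reservoir and 49.17% ± 6.3 in the carcass. This held for all 6 classes (exact permutation p = 0.1 each, the smallest possible, and 0.129 adjusted). In TPM the Ppup difference was 4.92 percentage points in place of 11.5 (exact p = 0.4). Stems with x made up 5 of the 10 leading higher stems and 38 of the 94 higher stems at 1000 CPM or more, while Ppup stems made up 3 and 23. On the lower side, stems with x made up 4 of the 10 leading stems and Ppup stems 4. Of the 30 lower stems at 1000 CPM or more in the carcass, 9 had an x and 5 were Ppup stems. Of all 12143 tested stems, 3140 were PB stems with x and 766 were Ppup stems.

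Calls were also counted for stems with neighbouring ID numbers, 10 apart in the Ppup class and 1 apart in the PB classes, as a description without a test. None of the sources used here says whether the numbers follow genome order. Of 51 higher Ppup stems with a tested neighbour, 36 had a neighbour that was also higher, or 70.6%, compared with 29.4% of all 180 Ppup stems with a tested neighbour. Of 68 lower Ppup stems, 54 had a lower neighbour, or 79.4%, compared with 38.9%. For PB stems without x the corresponding shares were 28.7% against 20.3% for higher stems and 48.5% against 40% for lower stems. For PB stems with x they were 36.7% against 24.7% and 36.7% against 28%. PB stems that share a number with and without x were also counted together, in 2563 pairs. Whether a shared number marks the same gene is not known. In the deposited order, models of PB.733 with x stand among those of PB.747 without x. The stem with x was higher for 16.6% of the 326 higher stems without x and for 19.7% of all pairs. In 205 pairs the calls were opposite, with 130 (5.07%) lower without x and higher with x, and 75 (2.93%) the reverse.

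Single models gave fewer calls per test. Of 21287 tested models 6640 were called, or 31.2%, with 2591 higher (12.2%) and 4049 lower (19%) in the reservoir. The spread between replicates was wider for models, with a common biological coefficient of variation of 0.771 compared with 0.367 for stems. Of the higher models 2228 (86%) belonged to a higher stem, 338 to a stem without a call and 25 to a lower stem. Of the lower models 3534 (87.3%) belonged to a lower stem, 480 to a stem without a call and 35 to a higher stem. Of the 4152 stems for which 2 or more models were tested, 124 (2.99%) held models called in both directions. As totals, 75 of these had no call, 30 were higher and 19 were lower. Conversely, 266 higher stems had no higher model and 452 lower stems had no lower model. Salmon divides reads among models that share sequence, so values of single models depend on that division. Whether reads were also divided between models of different stems was not checked.

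The model with the most counts was usually the same in both tissues. Among stems of at least 2 models with at least 100 counts in each of the 6 libraries, it was the same in all 6 for 361 of 553 higher stems (65.3%), 162 of 255 lower stems (63.5%) and 1309 of 1973 stems without a call (66.3%). It was the same within each tissue but different between them in 41 higher stems (7.41%), 27 lower stems (10.6%) and 60 stems without a call (3.04%). Of 6775 stems with 1 model, 13.7% were higher and 31.2% lower, and of 344 stems with 10 or more models, 21.2% were higher and 17.4% lower. The difference between these groups was not tested, and they stood at different levels, with medians of 4.83 and 45 CPM over all libraries.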

How the data were processed

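Tissue groups, replicate numbers and column names were taken from the labels. Per the submitters' processing notes, Salmon 1.9 quantified the libraries, so the deposited counts are estimated counts per model, unnormalized and already whole. The sources used here do not give its reference. The deposited TPM values were used as an alternative, except for reservoir replicate 2, whose column is the sum of 2 others.

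Counts were summed per ID stem, keeping a trailing x, and tested with edgeR 4.0.16 in R 4.3.3: filterByExpr by tissue, TMM, a quasi-likelihood model with the 3 tissues as coefficients on all 9 libraries, and Benjamini-Hochberg adjustment over all tested stems. Standard errors come from the F statistic. Single models were fitted likewise. limma 3.58.1 and DESeq2 1.42.0 served as alternatives. Single values per library were compared by exact two-sided permutation tests. Scripts were tested on simulated data.

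Replicates were checked for repeat deposits of one library, and none was found (chi-square per degree of freedom of at least 34.05 against counting noise). Log CPM correlated at 0.9399 to 0.9536 for reservoir pairs and 0.9159 to 0.9391 for carcass pairs. Named stems were, per direction and among called stems with libraries that did not overlap, the 1 with the largest fitted fold at 50 CPM or more and the 1 with the highest mean. The comparison, rule and tests were chosen with earlier results of these data known. Marker lists could not be run without gene names.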

Additional observations from a re-analysis of the deposited data

Results flagged for a closer look

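The effect of PB.3637 against the carcass differed between the gland parts. In 1 fit over all 9 libraries it was larger in the reservoir than in the duct by 3.98 ± 0.23 (log2, SE; edgeR adjusted p = 0.000181), and all 3 reservoir libraries, at 715.4 to 851.3 CPM, lay above the 3 duct libraries, at 38.54 to 58.78 CPM. The other 3 named stems did not pass this test. The carcass cancels out of this difference, so it is the contrast of reservoir and duct given above. PB.3637 was picked by its fold against the carcass, with the same reservoir libraries. Of all tested stems, 17.1% were called between reservoir and duct.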

How the results depend on the processing

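Each of the 4 named stems kept its direction and its call in all 21 alternatives checked for them. Stems without the trailing x were not among these. The adjusted p values of the 21 tests were up to 0.00011 for PB.3637, 0.00129 for Ppup084370, 0.00527 for Ppup133050 and 0.00473 for Ppup144450. The log2 fold change ranged from 3.96 to 5.6 for Ppup084370 and from -9.32 to -7.69 for Ppup144450.

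Leaving out each of the 9 libraries in turn gave 4933 to 5233 called stems, 1726 to 2004 higher and 2968 to 3391 lower, and 5592 to 6517 called models, 2246 to 2527 higher and 3292 to 4043 lower. DESeq2 called 5289 stems, limma voom 5183, the 6 libraries alone 5014, a test against a fold of 2 called 3899, and stems without the trailing x gave 4086 of 9584. The correlation of deviations was 0.128, 0.00406 and 0.0653 for same-numbered reservoir and carcass libraries. For libraries of different numbers it was -0.113 to 0.0478. With 3 libraries per tissue these values cannot tell whether the replicate numbers pair the samples. A replicate block gave 4946 called stems and 5177 called models.

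Scaling by size alone gave 994 higher and 5609 lower stems and 1615 higher and 6595 lower models. A minimum of 10 CPM in 3 libraries, which tested 6314 stems and 7755 models, called 2878 stems (1616 lower) and 3561 models (1482 higher, 2079 lower). On log2(TPM + 1) limma called 636 higher and 6242 lower stems and 1128 higher and 8017 lower models. On log2(TPM + 0.1) it called 7813 stems (687 higher, 7126 lower) and 10438 models (1226 higher, 9212 lower). For these settings other than the stricter minimum, the cause was not tested.

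As reservoir minus carcass, the share of the leading stems was 2.57 percentage points for 10 stems and 11.69 for 50 (-0.2792 to 6.182 for 10 stems without 1 library). The number of stems at 1 CPM was -1970, and -3252 for single models, -2937 at 1 TPM and -1290 on the TMM scale (-2152 to -1824 without 1 library). The number of stems holding 50% of the total was -13.67, and -40 in TPM (-22.33 to -2.833 without 1 library). Class shares in TPM differed by 12.18 (MSTRG), -0.01592 (MSTRGCarcass), -0.1587 (MSTRGVenom), -32.08 (PB), 15.16 (PB with x) and 4.92 (Ppup) percentage points, compared with 4.329, -0.06554, -0.07486, -23.35, 7.651 and 11.5 in counts. The cause was not tested.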
